A study of Mus musculus with 18 samples.

Results

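De novo lipogenesis, the route by which the liver turns sugar into fatty acids, was followed here through 10 genes in the RNA-seq of 18 mouse livers. The genes were taken by name, as the enzymes and regulators of this route, and they are Acly, Acaca, Acacb, Fasn, Elovl6, Scd1, Me1, Thrsp, Srebf1 and Mlxipl. All 10 were among the 35441 genes of the deposited table and all 10 were among the 14533 genes that were tested. The study treated mice without lysosomal acid lipase, the enzyme that frees fatty acids and cholesterol from lipids in the lysosome, with a liver-directed gene therapy. WT mice, untreated Lipa-/- mice and treated Lipa-/- mice were compared 12- and 34-weeks post-injection, with 3 male mice in each of the 6 groups.

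All mice had a C57/BL6N background and were fed standard chow. Lipa-/- mice, treated or not, lacked exon 4 of Lipa, which had been removed with a Cre recombinase driven by the CMV promoter. Treated mice had received one injection in the tail vein, at 10 to 12 weeks of age, of rAAV8.hAAT.LIPA, a vector that carries human LIPA under the hAAT promoter, which is active in hepatocytes. The labels give the times as 3 and 8 months and do not give the feeding state or the time of day at collection. Only 1 untreated Lipa-/- mouse was still alive at 34 weeks, and the others of that time point were killed when they reached ethical endpoints. The labels do not say which of the sequenced mice these were. In the untreated group labelled 34 weeks, time and the reaching of an endpoint therefore cannot be told apart. Study codes separated the time points, except for Lipa-/- mouse 5 at 12 weeks, which carried a code of its own, so time and code cannot be told apart. The libraries held 17527848 to 25833134 reads assigned to genes. Murine Lipa was 7.05- to 16.1-fold lower than in WT mice in the untreated and treated groups. Human LIPA was listed at 523 to 2750 CPM in treated mice and at 0 in all untreated Lipa-/- mice, while WT mice 1 and 2 at 34 weeks had 1 and 23 reads of it.

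In hepatocytes, ATP citrate lyase (Acly) makes cytosolic acetyl-CoA, the acetyl-CoA carboxylases (Acaca and Acacb) turn it into malonyl-CoA, and fatty acid synthase (Fasn) joins these units into palmitate with NADPH, part of which comes from malic enzyme (Me1). Elovl6 lengthens palmitate and Scd1 puts the first double bond into the product. The pathway is driven by insulin through SREBP-1c, a product of Srebf1, and by sugar through ChREBP, the product of Mlxipl, and Thrsp is a target of these signals whose protein promotes lipogenesis.

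The mouse genome (GRCm39) holds 4 of the genes on chromosome 11, Acaca (84020476-84292477), Acly (100367165-100440756), Fasn (120696672-120715995) and Srebf1 (60089913-60113407). Acacb (114284307-114388822) and Mlxipl (135118744-135168615) lie on chromosome 5, Scd1 (44382894-44399154) on chromosome 19, Elovl6 (129326004-129432144) on chromosome 3, Me1 (86462646-86578104) on chromosome 9 and Thrsp (97062139-97066937) on chromosome 7. Their canonical transcripts span 1277 bases in Thrsp to 10789 bases in Fasn.

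Promoters are shown because most of the 10 genes were lower together in Lipa-/- than in WT mice. RefSeq held 13 promoters of 9 of the genes (all but Scd1), in coordinates of GRCm38.p6. In the 250 bases before each start, 4 motifs were searched on both strands: a sterol regulatory element (TCACNCCAC), the E-box CACGTG, which bHLH factors bind, the CCAAT box to which NF-Y binds, and the GC box GGGCGG to which Sp1 binds. Capitals mark their matches in the following promoters. The windows of Fasn and of the second Mlxipl promoter are printed cut short at their ends, to 220 and 210 bases. The second Mlxipl promoter lies downstream of the first, within the gene.
Fasn, chr11:120824578-120824797, minus strand: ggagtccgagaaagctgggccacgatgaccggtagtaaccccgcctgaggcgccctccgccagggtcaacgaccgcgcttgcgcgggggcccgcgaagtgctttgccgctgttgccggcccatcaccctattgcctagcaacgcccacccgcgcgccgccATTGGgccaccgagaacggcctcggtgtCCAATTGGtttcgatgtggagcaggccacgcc
Acly, chr11:100528001-100528250, minus strand: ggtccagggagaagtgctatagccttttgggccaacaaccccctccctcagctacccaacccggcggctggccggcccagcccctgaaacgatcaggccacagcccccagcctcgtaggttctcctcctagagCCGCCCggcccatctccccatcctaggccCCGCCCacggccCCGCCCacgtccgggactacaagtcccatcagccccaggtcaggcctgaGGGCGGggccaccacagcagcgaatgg
Mlxipl first promoter, chr5:135089640-135089889, plus strand: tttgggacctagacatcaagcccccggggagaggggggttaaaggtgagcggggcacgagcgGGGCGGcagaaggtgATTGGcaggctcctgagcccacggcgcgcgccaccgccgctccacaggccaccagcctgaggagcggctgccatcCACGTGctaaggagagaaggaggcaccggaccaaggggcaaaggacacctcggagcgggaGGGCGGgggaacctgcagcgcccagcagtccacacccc
Mlxipl second promoter, chr5:135106641-135106850, plus strand: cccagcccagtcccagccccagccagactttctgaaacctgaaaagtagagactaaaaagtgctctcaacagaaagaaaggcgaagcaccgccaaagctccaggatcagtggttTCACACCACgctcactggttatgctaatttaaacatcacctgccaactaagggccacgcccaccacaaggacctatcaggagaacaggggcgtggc

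Fasn held 3 CCAAT boxes, of which a pair on opposite strands overlap, and Acly held 4 GC boxes. The first Mlxipl promoter held the only E-box among the 13 promoters and the second held the only sterol regulatory element. Thrsp held 2 CCAAT boxes, and no match to any of the 4 motifs lay in the 1 window each that was searched for Acaca and Elovl6. Any other start of these genes was not searched, and the Acaca window need not be its main promoter. Over all 32851 promoters of the table, 33.8% held a CCAAT box, 32.7% a GC box, 6.02% the E-box and 1.05% the sterol regulatory element. These matches describe letters in these windows and no binding was measured.

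Levels were compared between genes as TPM, which is scaled for transcript length. In WT mice at 12 weeks Scd1 stood highest with 1790 ± 839 TPM (SD, n = 3), followed by Thrsp with 741 ± 232, Fasn with 252 ± 75.7, Me1 with 139 ± 25.4 and Acly with 132 ± 37.7. Below these came the regulators Mlxipl with 79.4 ± 20.6 and Srebf1 with 73.4 ± 21.2 TPM, then Elovl6 with 18.9 ± 5.59, Acacb with 15.6 ± 7.09 and Acaca with 8.28 ± 4.02 TPM. Mean ± SD ranges of neighbours in this order overlapped except between Thrsp and Fasn, Fasn and Me1, and Srebf1 and Elovl6. All other values are CPM, reads of a gene relative to the library, scaled by TMM factors, which serve to compare mice and not genes.

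The first question was what loss of Lipa did to these genes. In Lipa-/- mice at 12 weeks, 8 of the 10 were lower than in WT mice (edgeR quasi-likelihood test, absolute log2 fold change above 1 and Benjamini-Hochberg adjusted p below 0.05 over all genes), against 9.06% of all tested genes called lower and 20.2% called higher. At 34 weeks all 10 were lower, against 15.7% of all tested genes called lower and 20.5% called higher. The median log2 fold change of the 10 genes was -1.79 at 12 weeks and -2.53 at 34 weeks, where that of all genes was 0.02 and -0.03. The groups did not overlap in 8 of the 10 genes at 12 weeks, against 52.7% of all genes, and in 9 of the 10 at 34 weeks, against 60.3%. Among the 10, Me1 and Thrsp differed most at each time. Without Lipa-/- mouse 5, the mouse with its own study code, 8 genes were still lower at 12 weeks.

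**Figure D1:**
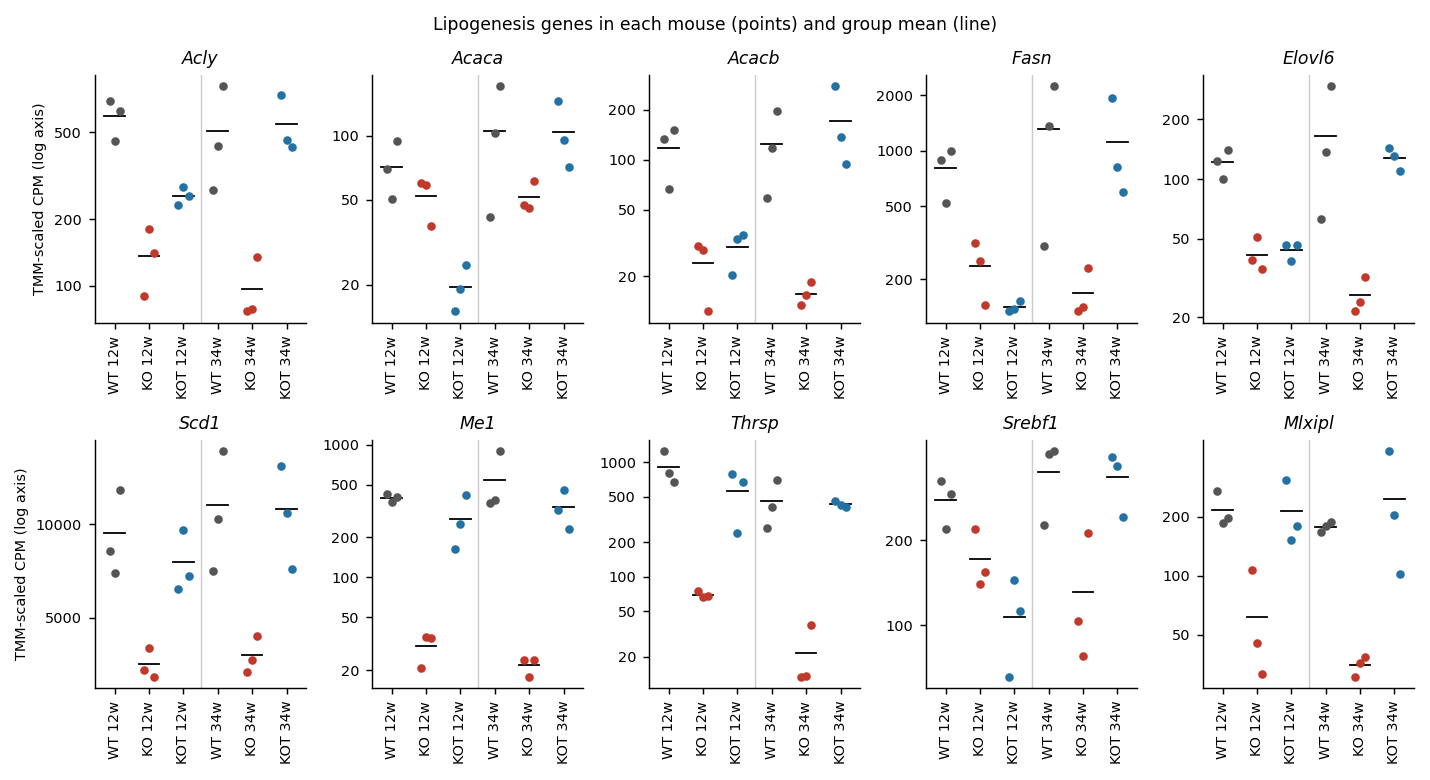
TMM-scaled CPM (log axis) of the 10 lipogenesis genes in each mouse (points) with the group mean (line). WT mice are grey, untreated Lipa-/- mice (KO) red and treated Lipa-/- mice (KOT) blue, 12 weeks to the left of the grey line and 34 weeks to its right. Red points lie below grey points for Me1 and Thrsp at both times, whereas blue points at 12 weeks lie near grey ones for Me1 and near red ones for Fasn.

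Me1 supplies NADPH for fatty acid synthesis. It was measured at 426, 367 and 403 CPM in the 3 WT mice at 12 weeks and at 20.8, 35.3 and 35.0 CPM in the 3 Lipa-/- mice. At 34 weeks it stood at 360, 381 and 893 CPM in WT and at 23.7, 17.8 and 23.8 CPM in Lipa-/- mice. Every Lipa-/- liver was far below every WT liver, and the fit gave log2 fold changes of -3.71 ± 0.42 (SE, adjusted p = 3.89e-06) and -4.64 ± 0.44 (adjusted p = 5.07e-07), which is 13.1- and 25-fold lower.

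Thrsp, which promotes lipogenesis, was at 1250, 806 and 675 CPM in WT and at 74.7, 66.2 and 68.1 CPM in Lipa-/- mice at 12 weeks. At 34 weeks it was at 268, 404 and 699 CPM in WT and at 13.3, 13.4 and 37.9 CPM in Lipa-/- mice. The groups were wide apart, with log2 fold changes of -3.71 ± 0.50 (adjusted p = 2.31e-05) and -4.41 ± 0.52 (adjusted p = 4.18e-06).

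Of the enzymes that build palmitate, Acly, the source of acetyl-CoA, was at 696, 457 and 622 CPM in WT against 90, 181 and 140 CPM in Lipa-/- mice at 12 weeks, and at 272, 433 and 812 against 76.2, 78.5 and 135 CPM at 34 weeks. Fasn, the synthase itself, was at 889, 522 and 995 against 315, 251 and 146 CPM at 12 weeks, and at 304, 1370 and 2250 against 134, 142 and 230 CPM at 34 weeks. Neither gene overlapped between the genotypes at either time, although WT mouse 1 at 34 weeks came near the highest Lipa-/- value of Fasn. Acly fell by 2.11 ± 0.38 (adjusted p = 0.000364) and 2.39 ± 0.39 (adjusted p = 9.32e-05) on the log2 scale, and Fasn by 1.76 ± 0.56 (adjusted p = 0.0191) and 2.96 ± 0.58 (adjusted p = 0.000529). The 12-week call of Fasn was lost without WT mouse 3 (adjusted p = 0.0579) or Lipa-/- mouse 9 (adjusted p = 0.0791), and also with total counts (adjusted p = 0.085) and with limma on log2 TPM (adjusted p = 0.226).

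Both acetyl-CoA carboxylases were measured. Acacb, whose malonyl-CoA is known to restrain fatty acid entry into mitochondria, was at 134, 67.2 and 151 CPM in WT and at 30.5, 28.9 and 12.3 CPM in Lipa-/- mice at 12 weeks, and at 59.2, 117 and 195 against 13.4, 15.5 and 18.4 CPM at 34 weeks. Acaca, whose malonyl-CoA feeds synthesis, was at 70, 50.4 and 94.4 CPM in WT and at 59.7, 58.8 and 37.9 CPM in Lipa-/- mice at 12 weeks, and at 41.7, 103 and 171 against 47.3, 45.8 and 61.5 CPM at 34 weeks. The groups were apart for Acacb and overlapped for Acaca at both times. Acacb was lower by 2.29 ± 0.48 (adjusted p = 0.00122) and 2.97 ± 0.49 (adjusted p = 0.000116) on the log2 scale. Acaca had a log2 fold change of -0.46 ± 0.40 at 12 weeks (adjusted p = 0.388), and its call at 34 weeks, with a log2 fold change of -1.03 ± 0.40 (adjusted p = 0.0426), was lost in 12 of 18 alternative settings, among them each fit without WT mouse 2 or 3 or Lipa-/- mouse 4, 5 or 6 (log2 fold changes of -0.49 to -1.17). The difference between the 2 genes was not tested.

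Elovl6, which lengthens palmitate to stearate, was at 124, 100 and 140 CPM in WT against 38.8, 50.8 and 35 CPM in Lipa-/- mice at 12 weeks, and at 62.6, 137 and 296 against 21.4, 24 and 32 CPM at 34 weeks. Scd1, the desaturase that makes oleate, was at 8230, 6960 and 12900 against 3400, 4010 and 3230 CPM at 12 weeks, and at 7060, 10400 and 17200 against 3350, 3660 and 4370 CPM at 34 weeks. Both were lower in each Lipa-/- mouse than in each WT mouse of its time point. Elovl6 fell by 1.55 ± 0.38 (adjusted p = 0.00376) and 2.68 ± 0.39 (adjusted p = 3.52e-05) and Scd1 by 1.4 ± 0.37 (adjusted p = 0.00695) and 1.61 ± 0.38 (adjusted p = 0.00215) on the log2 scale. With limma on log2 TPM the call of Elovl6 at 12 weeks (-1.07, adjusted p = 0.0738) and those of Scd1 at 12 weeks (-0.89, adjusted p = 0.13) and 34 weeks (-0.84, adjusted p = 0.122) were lost, and with total counts that of Scd1 at 12 weeks (-0.95, adjusted p = 0.0716). Scd1 was the most abundant of the 10 per transcript length in Lipa-/- livers, with 903 ± 86.8 TPM at 12 weeks and 1310 ± 155 TPM at 34 weeks.

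Both transcription factors were measured. Mlxipl was at 270, 185 and 198 CPM in WT against 107, 45.2 and 31.5 CPM in Lipa-/- mice at 12 weeks, and at 168, 179 and 188 against 30.5, 36 and 38.6 CPM at 34 weeks. Srebf1 was at 325, 218 and 290 against 219, 140 and 154 CPM at 12 weeks, and at 226, 405 and 413 against 103, 77.6 and 211 CPM at 34 weeks. For Srebf1 Lipa-/- mouse 5 reached the lowest WT mouse at 12 weeks and the groups were separate at 34 weeks. Mlxipl fell by 1.83 ± 0.47 (adjusted p = 0.00525) and 2.35 ± 0.48 (adjusted p = 0.000681) on the log2 scale, and Srebf1 had log2 fold changes of -0.70 ± 0.37 (adjusted p = 0.15, not called) and -1.42 ± 0.38 (adjusted p = 0.0053), the second lost with total counts (-0.85, adjusted p = 0.0949) and limma on log2 TPM (-0.94, adjusted p = 0.111). With the trend with transcript length and GC content removed, a fit described with the treated mice, Srebf1 was called lower at 12 weeks too (-1.32, adjusted p = 0.00132). That fit called 9 of the 10 genes lower at 12 weeks, against 13.9% of all genes, and all 10 at 34 weeks, against 17.5%. The reads of Srebf1 were counted for the gene as a whole and do not separate SREBP-1c from SREBP-1a.

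Lipa-/- livers held other cells than WT livers, and in bulk tissue fewer hepatocytes and less RNA per hepatocyte cannot be told apart. Hepatocyte markers were lower in 3 of 7 genes at 12 weeks and 5 of 7 at 34 weeks, with median log2 fold changes of -0.80 and -1.15, where the lipogenic genes had -1.79 and -2.53. Summed hepatocyte markers ranged from 42800 to 51100 TPM in WT and from 42200 to 56500 TPM in Lipa-/- mice at 12 weeks, and from 48900 to 51600 and 26900 to 52800 TPM at 34 weeks. Summed macrophage markers rose from 76.8-180 TPM in WT to 3500-8380 TPM in Lipa-/- mice at 12 weeks and from 163-313 to 4030-6930 TPM at 34 weeks, where 7 and 6 of the 8 markers were called higher and 0 and 1 lower. Summed stellate cell and fibroblast markers stood at 6.95-13.1 against 76-172 TPM at 12 weeks and 6.95-17.7 against 183-615 TPM at 34 weeks, with 3 and 4 of 5 genes called higher and 1 lower at each time, and cholangiocyte markers at 2.49-5.5 against 11.7-18.5 and 1.87-5.25 against 26.9-36.5 TPM, with 2 and 4 of 4 called higher. Summed neutrophil markers reached 423-5230 TPM in Lipa-/- mice at 12 weeks against 2.24-6.14 TPM in WT, with 4 of 4 called higher, and 493-1430 against 3.52-13.7 TPM at 34 weeks, with 3 of 4. Endothelial and lymphocyte markers held 1 of 4 genes called lower and 2 of 4 called higher, respectively, at each time. White fat, a tissue rich in lipogenic enzymes, was checked too: of its 7 markers, Adipoq, Lep, Plin1 and Retn lay below the read filter, and Lep had 0 reads. The summed level of 130-212 TPM in Lipa-/- mice against 11.9-18.8 TPM in WT mice at 12 weeks, and 151-305 against 15.2-51.5 TPM at 34 weeks, was mostly Fabp4, a gene that macrophages also express, and Cidec was lower at 34 weeks. The part of cell composition in the fall of the lipogenic genes was not tested.

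**Figure D2:**
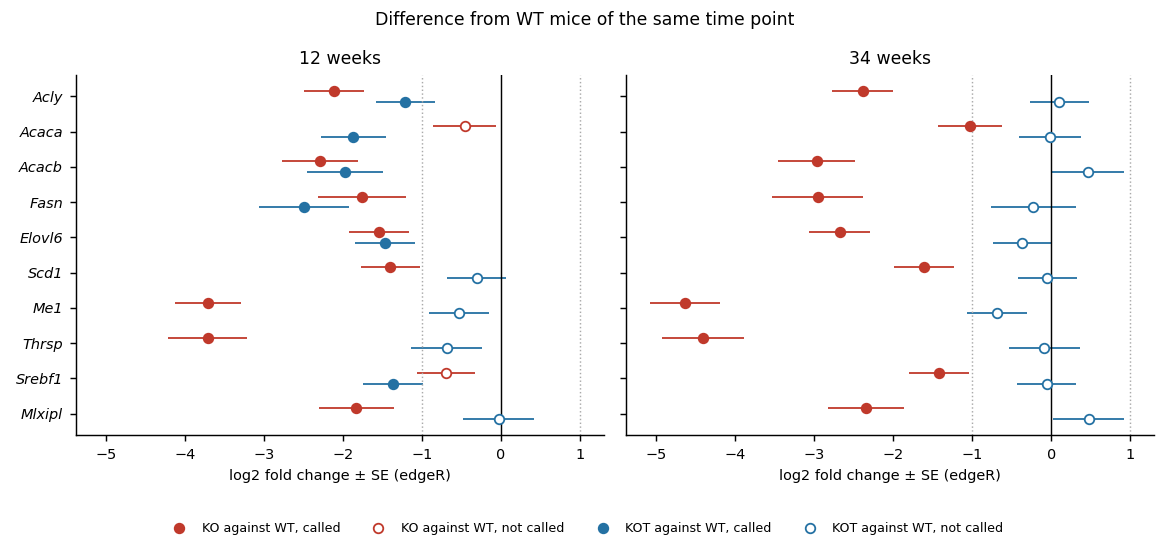
Log2 fold change against WT mice of the same time point (x axis, bars are ± 1 SE from edgeR) for untreated (red) and treated (blue) Lipa-/- mice, filled where called and open where not, with dotted lines at -1 and 1. At 34 weeks all 10 red points are filled and all 10 blue points are open, and at 12 weeks 8 red and 6 blue points are filled.

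Of 10 genes for the entry of glucose and fructose, 6 were lower in Lipa-/- mice at 12 weeks and 8 at 34 weeks. Khk, the first enzyme of fructose use, fell by 2.14 ± 0.32 (adjusted p = 6.89e-05) and 3.57 ± 0.34 (adjusted p = 5.83e-07) on the log2 scale. Pklr, the liver pyruvate kinase and a known ChREBP target, fell by 1.87 ± 0.42 at 12 weeks (adjusted p = 0.0021), and Slc2a2, the main glucose carrier of hepatocytes, by 2.77 ± 0.43 at 34 weeks (adjusted p = 6.7e-05). Of 12 genes of glycerolipid assembly, 4 and 8 were lower, among them Mogat1 with -4.24 ± 1.01 and -6.50 ± 0.93, a gene at or under 3 reads in 2 of 3 Lipa-/- mice at each time, and Acsl1, which activates fatty acids, with -2.19 ± 0.36 and -2.77 ± 0.37.

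Among 10 other elongases and desaturases, 2 and 6 were lower and 1 was higher at each time. Elovl3, an elongase of very long chains, was at 789 to 1010 CPM in WT and 0.117 to 0.426 CPM in Lipa-/- mice at 12 weeks, and at 349 to 473 against 0.155 to 0.505 CPM at 34 weeks. It had 3 to 16 reads in each Lipa-/- liver, and its fitted log2 fold changes of -11.56 ± 0.67 (adjusted p = 1.43e-08) and -10.28 ± 0.64 (adjusted p = 1.95e-08) exceeded those of all 10 lipogenic genes. Scd2, the Scd1 relative of tissues other than liver, went the other way, with log2 fold changes of 4.07 ± 0.55 (adjusted p = 2.1e-05) and 3.73 ± 0.53 (adjusted p = 2.78e-05). Its level moved with the macrophage markers above, whose part was not tested. Elovl5 was lower by 1.53 ± 0.34 and 3.16 ± 0.36 on the log2 scale.

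The supply of acetyl-CoA and NADPH did not move as one. Acss2, which makes acetyl-CoA from acetate, fell by 1.64 ± 0.36 (adjusted p = 0.0019) and 2.14 ± 0.37 (adjusted p = 0.000162) on the log2 scale, and Mdh1, the cytosolic malate dehydrogenase, was 2.43- and 3.96-fold lower. G6pdx, which makes NADPH in the pentose phosphate pathway, rose by 1.81 ± 0.33 (adjusted p = 0.00035) and 2.08 ± 0.33 (adjusted p = 7.74e-05) while Me1 fell. In all, 2 and 4 of the 9 genes were lower and 2 and 1 were higher, the other at 12 weeks being Pgd with 1.14 ± 0.30.

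Of 15 regulators of SREBP-1c and ChREBP, 4 and 5 were lower. Insig2, which holds SREBP in the endoplasmic reticulum, fell by 1.66 ± 0.28 (adjusted p = 0.000162) and 2.42 ± 0.28 (adjusted p = 3.8e-06), and Mid1ip1, the partner and relative of Thrsp that activates acetyl-CoA carboxylase, by 1.63 ± 0.39 (adjusted p = 0.00308) and 1.60 ± 0.39 (adjusted p = 0.00268) on the log2 scale. Pparg was the only one called higher, at 12 weeks, with 1.44 ± 0.41 (adjusted p = 0.0101). Sterol synthesis, the SREBP-2 branch, had 2 of 16 genes lower at each time, Stard4 and Pmvk, with a median log2 fold change of -0.06 and -0.55. Of 7 LXR targets of sterol efflux only Abcg1, which is abundant in macrophages, was called, at 3.95 ± 0.24 and 3.40 ± 0.23. In the list for carboxylase control, Prkaa2, a catalytic subunit of AMPK, was lower at both times with -1.46 ± 0.25, and Mlycd, which removes malonyl-CoA, at 34 weeks with -1.89 ± 0.27.

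**Figure D3:**
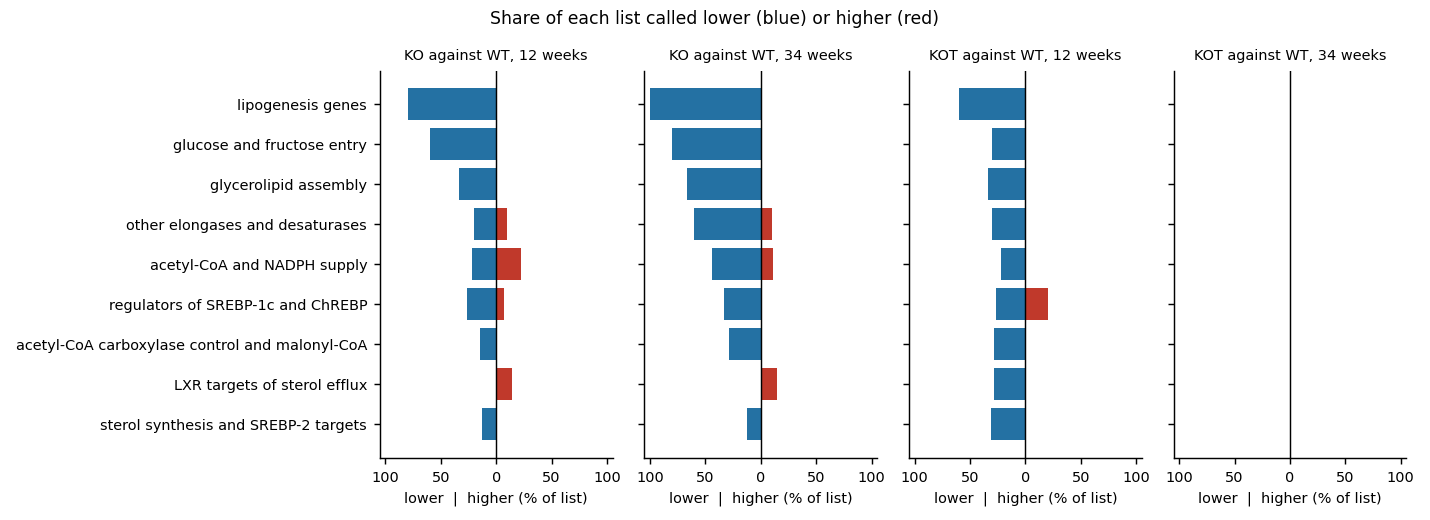
Share of each gene list called lower (blue, to the left) or higher (red, to the right) in percent of its tested genes (x axis), for untreated (KO) and treated (KOT) Lipa-/- mice against WT mice at both time points. The lipogenesis genes have the longest blue bar in the first 3 panels, at 8, 10 and 6 of 10 genes (in the third panel 3 of 10 with the length and GC trend removed, against 7 of 16 genes of sterol synthesis), and the fourth panel is empty because no gene of these lists was called.

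Feeding and time of day are known to move lipogenic genes and are not given in the labels, so a list of genes for each was followed. Of 8 genes of the fasting response, 3 were lower in Lipa-/- mice at 12 weeks, and 4 were lower and 1 higher at 34 weeks. Cyp4a14 was at 143 to 522 CPM in WT and 0.0368 to 0.189 CPM in Lipa-/- mice at 34 weeks, while Igfbp1 rose by 4.3 ± 0.81 (adjusted p = 0.000338) on the log2 scale. G6pc, the last step of glucose release, was lower by 2.40 ± 0.51 at 12 weeks. Of 9 clock genes, Clock (2.43-fold) and Arntl (-1.02 ± 0.35) were lower and Dbp was higher (3.53 ± 0.88) at 12 weeks, and Per1 was higher at 34 weeks (3.53 ± 0.91). The part of feeding and clock time in the lipogenic genes was not tested.

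The second question was what gene therapy did to these genes. At 34 weeks none of the 10 was called between treated Lipa-/- and WT mice, with 0.22% of all genes called in either direction, 0 of the 10 at an unadjusted p below 0.05 by edgeR and 0 called by DESeq2. Their log2 fold changes ran from -0.69 ± 0.38 for Me1 to 0.47 ± 0.45 for Mlxipl, with a median of -0.05 and SEs of 0.37 to 0.54. Against untreated Lipa-/- mice of 34 weeks, 9 of the 10 were higher, against 12.8% of all genes.

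Me1 was at 322, 457 and 233 CPM and Thrsp at 454, 423 and 406 CPM in treated mice at 34 weeks, 15.5- and 19.9-fold above untreated mice, with log2 fold changes of 3.95 ± 0.43 (adjusted p = 2.78e-06) and 4.31 ± 0.52 (adjusted p = 7.35e-06). Fasn was at 1930, 815 and 600 CPM, Acly at 740, 459 and 427 CPM and Acacb at 278, 138 and 94.1 CPM. Every treated mouse was above every untreated mouse in these 5 genes and in the rest of the 10. The groups did not overlap in 55.9% of all genes. The log2 fold changes were 2.73 ± 0.58 (adjusted p = 0.00118) for Fasn, 2.49 ± 0.39 (adjusted p = 8.78e-05) for Acly and 3.43 ± 0.50 (adjusted p = 4.89e-05) for Acacb.

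Mlxipl was at 433, 205 and 102 CPM in treated mice at 34 weeks, wider spread than its 3 WT mice at 168, 179 and 188 CPM, and 2.82 ± 0.49 above untreated mice on the log2 scale (adjusted p = 0.000213). Srebf1 was at 394, 367 and 242 CPM (1.36 ± 0.38, adjusted p = 0.00807), Elovl6 at 144, 131 and 110 CPM (2.31 ± 0.39, adjusted p = 0.000164) and Scd1 at 15400, 10900 and 7200 CPM (1.56 ± 0.38, adjusted p = 0.00316). Acaca was at 145, 95 and 71.3 CPM, above all 3 untreated mice, and with a log2 fold change of 1.01 ± 0.40 it missed the threshold (adjusted p = 0.0527). It passed without treated mouse 12 (adjusted p = 0.0345), with no filter (adjusted p = 0.044) and with length offsets in edgeR (adjusted p = 0.04) and DESeq2 (adjusted p = 0.0251). With the trend with transcript length and GC content removed it also passed (1.2, adjusted p = 0.000936). That fit called all 10 genes higher, against 14.5% of all genes. Srebf1 was not called with total counts (0.84, adjusted p = 0.109) or limma on log2 TPM (1.05, adjusted p = 0.0846), nor Scd1 with limma on log2 TPM (0.96, adjusted p = 0.0905). The macrophage markers summed to 247-700 TPM in these treated mice against 4030-6930 TPM in untreated mice, and hepatocyte markers to 47000-58100 against 26900-52800 TPM. Stellate cell and fibroblast markers summed to 14.7-22.6 against 183-615 TPM, cholangiocyte markers to 3.48-7.1 against 26.9-36.5 TPM and lymphocyte markers to 3.05-4.73 against 2.97-10.5 TPM. Neutrophil markers were at 5.61, 11.2 and 2060 TPM in the treated mice, against 493-1430 TPM in untreated and 3.52-13.7 TPM in WT mice. The part of these cells was not tested. Of the macrophage markers 2 of 8 were still called higher than in WT mice, Gpnmb (7.01 ± 0.86, adjusted p = 0.00147) and Trem2 (2.92 ± 0.52, adjusted p = 0.0259).

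The fold changes of all genes between treated and WT mice at 12 weeks moved with transcript length and GC content. When 12410 genes with an average of at least 1 CPM were sorted into 5 classes of each, the median log2 fold change ran from 0.92 to -1.27 over the 25 classes, the lowest being the class of the longest and most GC-rich transcripts, which held 229 genes with Fasn and Acacb among them. The same medians ran from -0.49 to 0.31 for untreated against WT mice at 12 weeks and from -0.21 to 0.18 for treated against WT mice at 34 weeks. TMM factors were 0.587, 0.759 and 0.627 in the 3 treated mice at 12 weeks and 0.806 to 1.69 in the other 15 mice. A further fit therefore took a smooth trend with length and GC out of each mouse. For treated against WT mice at 12 weeks its values for the 10 genes and its counts for the lists are given beside those of the first fit. Lists of untreated against WT mice were given from the first fit only. There the further fit called, among others, 8 of 12 genes of glycerolipid assembly and 4 of 10 other elongases and desaturases lower at 12 weeks. Of the 15 regulators it called 6 lower and 1 higher at each time. The part of this trend in the results of the treated mice at 12 weeks was not tested otherwise.

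Fasn was at 135, 139 and 153 CPM in treated mice at 12 weeks, below all WT mice of 12 weeks, and mice 10 and 11 were also below all untreated mice of 12 weeks. Acaca was at 15, 19.2 and 24.7 CPM, below every mouse of the other 5 groups. Elovl6 was at 46.6, 38.7 and 46.6 CPM, within the range of the untreated mice of 12 weeks. Against WT mice the log2 fold changes were -2.49 ± 0.57 for Fasn (adjusted p = 0.00629), -1.87 ± 0.41 for Acaca (adjusted p = 0.00532) and -1.47 ± 0.38 for Elovl6 (adjusted p = 0.00978), and with the trend removed they were -1.40 ± 0.33 (adjusted p = 0.00693), -1.24 ± 0.26 (adjusted p = 0.00383) and -1.43 ± 0.34 (adjusted p = 0.00693). These 3 genes were called in both fits.

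Acacb was at 20.5, 33.7 and 35.6 CPM, Acly at 232, 282 and 255 CPM and Srebf1 at 65.6, 144 and 112 CPM in the treated mice. All were below every WT mouse of 12 weeks, where the groups did not overlap in 52.5% of all genes. Their log2 fold changes were -1.97 ± 0.48 (adjusted p = 0.00782), -1.21 ± 0.37 (adjusted p = 0.0209) and -1.37 ± 0.38 (adjusted p = 0.0126). With the trend removed none of these 3 was called, at -0.91 ± 0.26 (adjusted p = 0.0157), -0.78 ± 0.32 (adjusted p = 0.0735) and -0.43 ± 0.29 (adjusted p = 0.254). Acly also lost its call without WT mouse 1 or 3 or treated mouse 10 (adjusted p = 0.0641 to 0.0665), and Srebf1 without treated mouse 10 (adjusted p = 0.0552). In all, 6 of the 10 genes were lower than in WT mice in the first fit, against 12% of all genes called lower and 13.6% called higher, and 3 with the trend removed, against 8.61% of all genes called lower and 10.1% called higher.

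**Figure D4:**
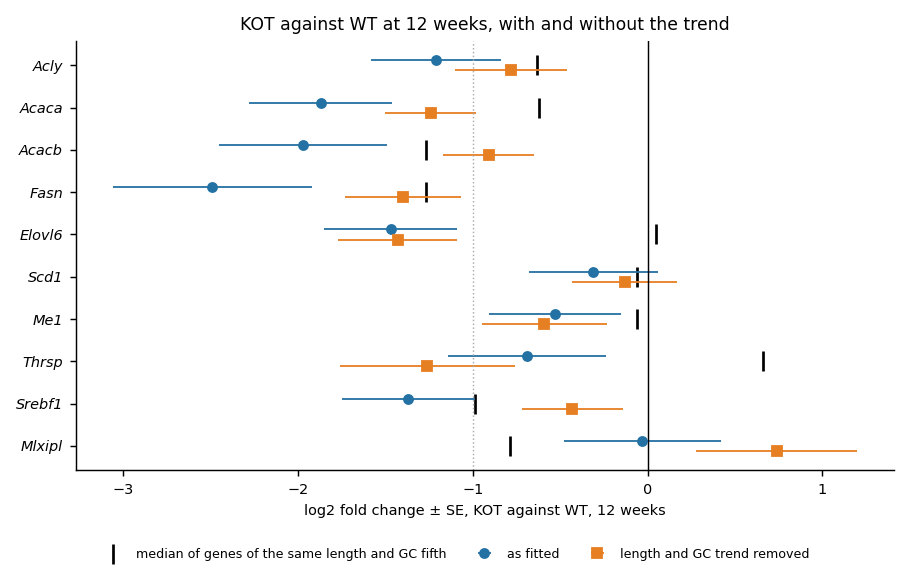
Log2 fold change (x axis, bars are ± 1 SE) of treated Lipa-/- against WT mice at 12 weeks as fitted (blue circles) and with the trend with transcript length and GC content removed (orange squares), and the median of the genes in the same class of length and GC (black ticks). The black ticks lie at -1.27 for Fasn and Acacb and at 0.66 for Thrsp, and only Acaca, Fasn and Elovl6 lie below -1 with an adjusted p below 0.05 in both fits.

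Me1, Thrsp, Scd1 and Mlxipl were not called lower than in WT mice in the treated livers at 12 weeks. Me1 was at 162, 250 and 416 CPM (log2 fold change against WT mice -0.53 ± 0.38, adjusted p = 0.275), Thrsp at 782, 240 and 669 CPM (-0.69 ± 0.45, adjusted p = 0.233), Scd1 at 6170, 9600 and 6840 CPM (-0.31 ± 0.37, adjusted p = 0.519) and Mlxipl at 310, 152 and 180 CPM (-0.03 ± 0.45, adjusted p = 0.973). With the trend removed, these values were -0.59, -1.26, -0.13 and 0.74, none of them called, the nearest to it being Thrsp (adjusted p = 0.0636). Limma on log2 TPM called Me1 (-1.37, adjusted p = 0.0391) and Thrsp (-1.48, adjusted p = 0.0205) lower, and total counts called Thrsp (-1.16, adjusted p = 0.0442), scales on which the median of all genes was -0.33.

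Against untreated mice at 12 weeks, the same 4 genes were higher, which is 4 of 10 against 16.2% of all genes. Acaca alone was lower, against 25.3% of all genes. Me1 rose by 3.18 ± 0.41 (adjusted p = 1.79e-05), Thrsp by 3.02 ± 0.49 (adjusted p = 0.000123), Mlxipl by 1.80 ± 0.47 (adjusted p = 0.00429) and Scd1 by 1.09 ± 0.37 (adjusted p = 0.0212) on the log2 scale. Acaca fell by 1.41 ± 0.41 (adjusted p = 0.00833). With the trend removed 6 genes were higher, against 17.3% of all genes, these 4 with Acacb (1.82 ± 0.27) and Acly (1.66 ± 0.33), and Acaca was no longer called (-0.69 ± 0.25, adjusted p = 0.0327). The signs of Fasn and Srebf1 turned between the fits, from -0.74 and -0.67 to 0.84 and 0.89, without a call in either. Other settings called them lower. Fasn was lower with length offsets in edgeR (-1.32, adjusted p = 0.0318) and DESeq2 (-1.29, adjusted p = 0.0139). Both genes were lower with total counts (-1.61, adjusted p = 0.0248 and -1.51, adjusted p = 0.00517) and with limma on log2 TPM (-2.43, adjusted p = 0.0021 and -1.78, adjusted p = 0.00411). In each of these last 2 settings 2 of the 10 were higher and 3 lower. Total counts called 4.67% of all genes higher and 47.7% lower with a median of all genes of -1.05, and limma on log2 TPM 2.75% and 42.4% with a median of -0.83. Me1 and Thrsp were called higher in all 18 alternatives, Mlxipl was lost with total counts (0.88, adjusted p = 0.101) and limma on log2 TPM (0.71, adjusted p = 0.212), and Scd1 was lost without Lipa-/- mouse 5 or 9 or treated mouse 11 (adjusted p = 0.0588 to 0.0825) or with total counts (0.25, adjusted p = 0.602) and turned to -0.07 (adjusted p = 0.901) with limma on log2 TPM.

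The lists around the pathway in treated mice at 12 weeks are given with and without the trend. Glucose and fructose entry held 3 of 10 genes lower than in WT mice in both fits, led by Pklr with -1.62 ± 0.42 (adjusted p = 0.00976) and Tkfc with -1.30 ± 0.35, while Khk stood at 0.58 ± 0.31 (adjusted p = 0.151). Glycerolipid assembly held 4 of 12 genes lower and 1 with the trend removed, led by Lpin1, the phosphatidate phosphatase, with -2.84 ± 0.70 (adjusted p = 0.00823) and Agpat3 with -1.59 ± 0.36. Sterol synthesis held 5 of 16 genes lower and 7 with the trend removed, and the 16 fold changes were all negative with a median of -0.80 (-0.73 with the trend removed).

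Among the regulators, Mid1ip1 was lower with -2.11 ± 0.39 (adjusted p = 0.00282) and Mbtps1, the protease that releases SREBP, with -1.44 ± 0.30, while Nr1h3, the liver X receptor that drives Srebf1, was higher with 1.17 ± 0.30 (adjusted p = 0.00979) and Mlx, the partner of ChREBP, with 1.12 ± 0.37. In this list 4 genes were lower and 3 higher, and 1 and 2 with the trend removed. With the trend removed Mid1ip1 (-2.14 ± 0.35, adjusted p = 0.00138) and Nr1h3 (1.47 ± 0.35, adjusted p = 0.00696) kept their calls, and Mbtps1 (-0.94 ± 0.22, adjusted p = 0.00718) and Mlx (0.73 ± 0.29, adjusted p = 0.0628) were not called. Of the other genes named for these lists, Agpat3, Fads2, G6pdx and Cpt1a also lost their calls, at -0.74, -0.89, -0.77 and -0.65. Other elongases and desaturases held 3 of 10 lower, led by Elovl1 with -1.49 ± 0.42 and Fads2 with -1.24 ± 0.41, and 3 lower and 1 higher with the trend removed. Of the acetyl-CoA and NADPH genes, Acss2 (-1.45 ± 0.36) and G6pdx (-1.05 ± 0.34) were lower and 1 of 9 with the trend removed. Of the carboxylase control genes Stk11 (-1.97 ± 0.43) and Cpt1a (-1.18 ± 0.40) were lower, and 1 lower and 1 higher with the trend removed. Of the LXR targets Lpcat3 (-1.50 ± 0.43) and Pltp (-1.26 ± 0.48) were lower, and 2 lower and 1 higher with the trend removed. In both fits the fasting list held only G6pc lower (-1.33 ± 0.49) and the clock list no gene called. Summed macrophage markers were at 450-1130 TPM in these mice, with 6 of 8 genes called higher than in WT mice, and hepatocyte markers at 30900-63900 TPM, with 2 of 7 lower and 1 higher. Summed stellate cell and fibroblast markers were at 11-36.7 TPM against 6.95-13.1 TPM in WT mice (2 of 5 genes higher, Col3a1 with 3.41 ± 0.55 and Col1a1 with 2.83 ± 0.61). Neutrophil markers were at 10.7-104 against 2.24-6.14 TPM (1 of 4 higher). Lymphocyte markers were at 0.869-3.62 against 0.773-1.05 TPM (2 of 4 higher), and endothelial markers at 37-54.7 against 48.4-68.3 TPM (1 of 4 lower). Of the white fat markers 1 of 3 tested was higher, Fabp4 with 1.53 ± 0.33, and of the cholangiocyte markers none of 4 was called. These marker calls are from the first fit. With the trend removed 6 macrophage, 2 stellate cell and fibroblast and 1 lymphocyte markers were higher. Hepatocyte markers had 2 lower and 1 higher. No neutrophil, endothelial, cholangiocyte or white fat marker was called in that fit, with Fabp4 at 0.7 ± 0.32 (adjusted p = 0.0973). The part of these cells was not tested.

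Time was compared within each kind of mouse. In WT mice none of the 10 genes was called between 34 and 12 weeks (0.323% of all genes called, 1 of the 10 at an unadjusted p below 0.05, 0 called by DESeq2), and Thrsp was lowest with -1 ± 0.46 (adjusted p = 0.602). In untreated Lipa-/- mice none was called either (0.495% of all genes, 1 of the 10 at an unadjusted p below 0.05). Thrsp came nearest there with -1.69 ± 0.47 (adjusted p = 0.0869), was called by DESeq2 with -1.67 (adjusted p = 0.012) and without Lipa-/- mouse 6 with -2.38 (adjusted p = 0.0169), and its groups did not overlap, as in 27.4% of all genes. With the trend removed Thrsp was not called (-1.34 ± 0.51, adjusted p = 0.231). Acacb was called lower in that fit (-1.24 ± 0.26, adjusted p = 0.0473), against 0.337% of all genes. The difference between Lipa-/- and WT mice itself was not called to change with time for any of the 10 genes (0.0619% of all genes, 1 of the 10 at an unadjusted p below 0.05, lowest adjusted p = 0.517), and larger fold changes at 34 weeks were not shown to differ from those at 12 weeks.

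In treated mice 6 of the 10 genes were higher at 34 than at 12 weeks, against 17.5% of all genes: Fasn by 2.97 ± 0.58 (adjusted p = 0.00175), Acacb by 2.51 ± 0.49 (adjusted p = 0.00169), Acaca by 2.40 ± 0.42 (adjusted p = 0.00144), Srebf1 by 1.64 ± 0.38 (adjusted p = 0.00323), Elovl6 by 1.54 ± 0.38 (adjusted p = 0.00438) and Acly by 1.08 ± 0.37 (adjusted p = 0.0267) on the log2 scale. With the trend removed 3 were called higher, against 10.1% of all genes, Acaca with 1.44 ± 0.26, Elovl6 with 1.42 ± 0.34 and Fasn with 1.12 ± 0.33. Acly was lost without treated mouse 10 or 12 of 12 weeks or mouse 9 of 34 weeks (adjusted p = 0.0526 to 0.136). The difference between treated and WT mice changed with time for 2 of the 10 genes, Acacb with 2.43 ± 0.66 (adjusted p = 0.027) and Acaca with 1.84 ± 0.57 (adjusted p = 0.0361), against 8.58% of all genes called in this direction. The count over all genes rested on single mice. It was 2675 in either direction with all mice. Leaving out treated mouse 9 or 11 of the later time gave 1 and 1280, WT mouse 1 of that time 172, WT mouse 1 or 3 of the earlier time 65 and 3, and treated mouse 10 of the earlier time 458. Fasn had 2.26 ± 0.78 with an adjusted p of 0.0501. With the trend removed only Acaca was called (1.12 ± 0.36, adjusted p = 0.0454), against 6.07% of all genes.

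Deviations from the group mean had the same sign for most of the 10 genes in some mice and not in others. In WT mice at 34 weeks, mouse 1 was below its group mean in all 10 genes and mouse 3 above it in all 10, with mean deviations of -0.80 and 0.75 on the log2 scale. In treated mice at 34 weeks, mouse 12 was below its mean in all 10 (-0.50) and mouse 9 above it in 9 (0.50). Among untreated mice at 34 weeks, mouse 6 was above its mean in all 10 (0.42), and in WT mice at 12 weeks mouse 2 was below in all 10 (-0.35). In untreated mice 5, 8 and 9 of 12 weeks 6, 7 and 2 of the genes were above their mean, and in treated mice 10, 11 and 12 of 12 weeks 3, 4 and 7. Over the 18 mice, which share their libraries and depth, the correlation of a gene's deviations with the mean of the other members was lowest for Mlxipl (Pearson 0.37), Me1 (0.47) and Thrsp (0.48) and reached 0.94 for Acaca and Fasn, as a description with no test. The fasting genes deviated by -0.02, -0.11 and 0.14 and the clock genes by -0.56, 0.00 and 0.56 in WT mice 1, 2 and 3 of 34 weeks. In treated mice 9, 11 and 12 of 34 weeks the clock genes deviated by 0.28, 0.01 and -0.29. In untreated mice 4, 5 and 6 of 34 weeks they deviated by 0.47, -0.03 and -0.44, where the lipogenic genes deviated by -0.21, -0.21 and 0.42. The part of feeding and clock time in these deviations was not tested. The spread of the WT group at 34 weeks, with Fasn from 304 to 2250 CPM, went one way in all 10 genes for the lowest and the highest mouse.

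The genes whose deviations from their group means were most like the mean deviation of the 10 were Sepsecs, Slc10a5, Prkca, Tubgcp4, Golim4 and Gpam, with likeness values (Pearson) of 0.93, 0.92, 0.91, 0.91, 0.91 and 0.89. This is a description over 18 mice and 12589 genes, with no test, and the points share their libraries and depth. Gpam, which starts glycerolipid synthesis from new fatty acids, also fell in Lipa-/- mice by 1.52 ± 0.48 (adjusted p = 0.0194) and 2.11 ± 0.49 (adjusted p = 0.0021) on the log2 scale.

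Transcript length was taken from the deposited effective transcript length, the mean length of a gene's transcripts weighted by their estimated abundance. Me1 had a longer effective length in Lipa-/- mice, at 2999 ± 124 bases (SD, n = 6) against 2475 ± 59 bases in WT mice (SD, n = 6), a difference of 524 bases or 21.2% (exact two-sided permutation test over 924 splits, p = 0.00216, adjusted p = 0.0216 over the 10 genes). It was 3036, 2747 and 3060 bases in the untreated mice at 12 weeks and 3060, 3033 and 3055 at 34 weeks. In WT mice it was 2449, 2444 and 2458 bases at 12 weeks and 2583, 2497 and 2418 at 34 weeks. No Lipa-/- mouse overlapped a WT mouse, and within each time point the difference was 498 and 550 bases with the smallest p that 3 against 3 allow (exact permutation p = 0.1). The call held without any 1 of the 12 mice (exact permutation test, adjusted p = 0.0216 to 0.0433). This adds no support, because groups that do not overlap stay apart when a mouse is left out.

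In treated mice, the effective length of Me1 was 3007 bases in mouse 10, 2473 in mouse 11 and 2303 in mouse 12 at 12 weeks, and 2502, 2518 and 2545 at 34 weeks. Mouse 10, with the long value, also had the lowest Me1 level of the treated mice, 162 CPM. The lengths of Lipa-/- mice rest on 461 to 909 reads of Me1 per mouse and those of WT mice on 6107 to 22952 reads. Which transcripts of Me1 differ was not analysed here. Of the other 9 genes, Acaca (8734 ± 169 against 8138 ± 650 bases, exact permutation p = 0.0281, adjusted p = 0.141) and Acacb (6222 ± 314 against 6554 ± 170 bases, exact permutation p = 0.0433, adjusted p = 0.144) came nearest, and Acaca passed without WT mouse 2 of 34 weeks. The lengths of Scd1, Thrsp and Acly differed by -0.204%, -1.1% and -0.771% between the genotypes (Lipa-/- minus WT).

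**Figure D5:**
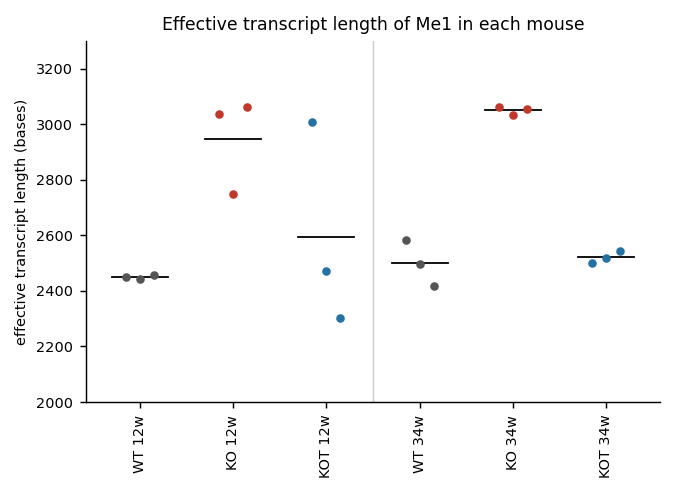
Effective transcript length of Me1 in bases (y axis, from 2000) in each mouse (points) with the group mean (line), WT mice grey, untreated Lipa-/- mice (KO) red and treated Lipa-/- mice (KOT) blue. Red points lie between 2747 and 3060 bases and grey points between 2418 and 2583 bases, and 1 treated mouse at 12 weeks lies among the red points.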

How the data were processed

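Libraries of polyadenylated RNA from frozen liver of 18 mice were sequenced in pairs, and the authors assigned the reads to transcripts of the mouse with Salmon and summed them per gene with tximport. The deposited values are estimated counts that are not normalized, TPM values scaled by the authors within each mouse, and mean effective transcript lengths in bases (other, made by tximport). The deposited comparison columns hold log2 fold changes and p-values of the authors from DESeq2 1.40.1 in R 4.3.0 and were not used. The build was GRCm39 per the labels. TPM and CPM are relative to the library, so a change of one gene is relative to the others.

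The deposited estimated counts were rounded and genes with more than 100 reads over the 18 mice were kept (14533 genes). A quasi-likelihood model with 6 group means was fitted in edgeR 4.0.16 (R 4.3.3) with TMM factors, and p-values were adjusted with the Benjamini-Hochberg method over all genes. A gene was called at an absolute log2 fold change above 1 with an adjusted p below 0.05, SEs are the fold change over the root of F, and the prior count was 2. Replicates were separate mice. Same-group mice differed by more than sampling noise (chi-square per degree of freedom of at least 45.3). A count of 3 reads equals 0.0946 to 0.291 CPM, which covers counting error only. The 10 genes, the gene lists and the tests were chosen with earlier results of these data known. All 10 genes are named, and from each list up to 2 called genes per direction and comparison, those with the largest change whose average over the mice reached 1 CPM, and the 6 genes of highest likeness. Values of Khk in treated mice and of Gpam, Adipoq, Lep, Plin1, Retn, Cidec and others outside this rule were chosen after their values were seen. Some genes that this rule names are not reported here. Where mouse numbers recur between time points (WT 1, 2 and 3, treated 11 and 12), same-numbered mice did not deviate together, so no pairing was used.

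Alternatives were DESeq2 1.42.0 with and without length offsets, edgeR with length offsets, upper-quartile and total-count scaling, no filter and filterByExpr, only the groups compared, limma 3.58.1 on log2 TPM with a pseudocount of 0.5, an adjusted p alone or below 0.01, a block for mouse number, and each mouse left out. A trend with length and GC (98.4% of tested genes had both) was removed in a fit added after seeing the data. In counts simulated for Lipa-/- against WT mice at 12 weeks (11778 genes, 200 changed), edgeR recovered 70% of 4-fold and 9% of 2-fold changes with 4 false calls, and DESeq2 86% and 33% with 30. All simulations were scored at an adjusted p below 0.05 alone, without the fold change threshold used for calls. With a simulated length trend (11964 genes) the trend fit made 6 false calls against 106 without it. It also recovered fewer changes, 70% of 4-fold and 6% of 2-fold against 80% and 28% without it. The simulated trend was of length alone and lay on untreated Lipa-/- mice, not on treated mice.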

Additional observations from a re-analysis of the deposited data

Results flagged for a closer look

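The difference between treated Lipa-/- and WT mice changed between 12 and 34 weeks, by the interaction test of edgeR, for Acacb with a log2 value of 2.43 (SE 0.66, adjusted p = 0.027) and for Acaca with 1.84 (SE 0.57, adjusted p = 0.0361), both rising with time. Acacb moved from -1.97 at 12 weeks to 0.46 at 34 weeks against WT mice, and Acaca from -1.87 to -0.02. Neither call held under all settings: Acaca was lost in 9 and Acacb in 8 of 24 alternatives. With the trend with length and GC content removed, Acaca was at 1.12 (adjusted p = 0.0454) and Acacb at 1.10 (adjusted p = 0.0512, not called). The part of time, study code and library properties was not tested.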

How the results depend on the processing

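The called falls of the lipogenic genes in Lipa-/- mice kept their direction in all alternatives. This does not cover Acaca and Srebf1 at 12 weeks, which were not called and whose direction was not followed. At 12 weeks 5 genes were called with limma on log2 TPM, and 7 to 8 with 1 mouse left out. At 34 weeks 9 to 10 were called with 1 mouse left out. There, Acaca, Scd1 and Srebf1 were lost with limma on log2 TPM, and Acaca and Srebf1 with total counts. With the length and GC trend removed, treated against WT mice at 12 weeks had 3 genes called, treated mice over time 3, and the interaction of treated mice with time 1. That interaction had 5 genes called with total counts, 6 with limma on log2 TPM, 0 with only the groups compared, 0 at an adjusted p below 0.01, and 0 to 5 with 1 mouse left out: 0 without WT mouse 1 or 3 or treated mouse 10 of 12 weeks or without WT mouse 1 or treated mouse 9 of 34 weeks, 1 without treated mouse 11 of either time, 4 without treated mouse 12 and 5 without WT mouse 3 of 34 weeks. Untreated mice over time had 1 gene called with DESeq2, 1 with DESeq2 and length offsets, and 0 to 1 with 1 mouse left out, Thrsp each time. With the trend removed 1 was called, which was Acacb (-1.24, adjusted p = 0.0473) and not Thrsp (-1.34, adjusted p = 0.231). Leaving out 1 mouse gave 4 to 6 genes for treated against WT mice and 4 to 6 for treated against untreated mice at 12 weeks, 9 to 10 at 34 weeks, 5 to 6 for treated mice over time, and 1 to 2 for effective length. The only called value that reversed was Scd1 in treated against untreated mice at 12 weeks, at -0.07 with limma on log2 TPM. The cause was not tested. With total counts the median of all genes was 0.49 and 0.60 for Lipa-/- against WT mice and -1.05 for treated against untreated mice at 12 weeks.

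Mouse numbers recur between time points, with deviations correlated at 0.08, -0.24 and 0.46 in WT and -0.08 and -0.25 in treated mice, so they do not pair the mice. With the mouse number as a replicate block 5 genes were called in treated mice over time and 0 in WT mice. Depth allowed 3 reads at 0.0946 to 0.291 CPM, well below all 10 genes. Over all genes, counts of called genes moved by more than 1.5 times in several comparisons. Treated against WT mice at 34 weeks had 32 called genes, 84 with DESeq2 and 7 with only the groups compared, WT mice over time had 47 and 188 with DESeq2, untreated mice over time 72, 438 with DESeq2 and 469 with limma on log2 TPM, and the interaction of treated mice with time 2675, 5 with only the groups compared and 1 to 3454 with 1 mouse left out.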
